A study of Mus musculus with 9 samples.

Results

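The comparison set retina of mice with oxygen-induced retinopathy (OIR) that had received an intravitreal injection of phosphate-buffered saline (PBS) on postnatal day 15 against retina of normoxic mice. Both were collected on postnatal day 17. Its members were the 3 libraries labelled PBS and the 3 labelled Normoxic, 6 of the 9 libraries of the series, and the 17362 of 26683 listed genes that passed a low-count filter. The other 3 libraries came from OIR retina injected with a hydrogel named PCC1/PHCF. They entered through the low-count filter, the scaling and the shared estimate of spread, but not the contrast itself. With the 6 libraries alone 16983 genes passed the filter. The labels give no strain or sex, and no genotype beyond library names that begin with WT for Normoxic and OIR for PBS. They do not say whether WT names a genotype, that Normoxic eyes were injected, or whether replicates were separate animals. OIR, its oxygen exposure and the injection therefore cannot be told apart in this contrast, and p-values measure only the spread between these libraries, which may be technical.

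In the mouse OIR model, pups are kept in high oxygen while the retinal vessels are still growing, the central capillaries are lost, and on return to room air the inner retina is starved of oxygen. Preretinal vessel tufts then form while Müller glia, astrocytes and microglia react and inner neurons lose synapses and function. Rod and cone outer segments, which depend on the choroid for their supply, are less directly exposed to the loss of retinal vessels.

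The libraries held 29324142 to 35663470 counts. Each of the 10 rod and 8 cone markers passed the filter, and the rod markers summed to between 53888 and 78282 CPM (counts scaled to library size by TMM). Gfap, the glial filament that rises in the injured retina, was called higher with a log2 fold change of 3.62 ± 0.26 (SE, n = 3 and 3, adjusted p = 0.00013). PBS 3 stood apart. For 8 retinal pigment epithelium markers the summed CPM was 218 in PBS 3 against 59.3 and 57.4 in PBS 1 and 2 and 25.2 to 96.0 in Normoxic. For 6 melanocyte and choroid markers it was 152 against 32.0 and 47.6, and 29.9 to 55.0. Of 8 neutrophil markers none passed the filter, with 6 counts in all Normoxic and 29 in all PBS libraries. In bulk tissue a change in the number of cells of a type and a change in RNA per cell cannot be told apart.

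A gene was called where the adjusted p of edgeR's quasi-likelihood test was under 0.05. This held for 1101 genes, 6.34% of those tested, with 748 higher (4.31%) and 353 lower (2.03%) in PBS. The CPM of the 3 PBS and 3 Normoxic libraries did not overlap for 5078 genes (29.2%), among them 746 of the higher and all 353 of the lower calls. Separation of the groups, where given below for a called gene, therefore adds little to its call. For 7318 genes (42.1%) the 95% interval of the fold change lay wholly within 1.5-fold in either direction, so that larger changes lay outside the interval. Over all tested genes the median log2 fold change was 0.01.

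Higher and lower calls differed in size and in the counts behind them, on a CPM scale that is not divided by gene length. Of the 748 higher genes 228 differed by at least 4-fold and 28.6% by less than 2-fold, with a median log2 fold change of 1.47 at a median of 8 CPM. Lower calls were smaller and had more counts. Of the 353 lower genes 10 differed by at least 4-fold and 81.6% by less than 2-fold, with a median of -0.63 at 31.8 CPM. The median length was 2909 bases for higher and 4883 bases for lower genes, against 3650 for all tested genes.

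PBS 2 lay nearest to Normoxic. Among the higher genes the library with the greatest increase was PBS 1 for 322, PBS 3 for 367 and PBS 2 for 59, and PBS 2 showed the smallest increase for 425 (56.8%). Among the lower genes PBS 3 was farthest below Normoxic for 230 and PBS 2 nearest for 219 (62.0%). The median log2 difference of the higher genes was 1.46 for PBS 1, 1.18 for PBS 2 and 1.51 for PBS 3. The higher genes in which PBS 3 was farthest had a median length of 2478 bases, and those in which PBS 1 was farthest 3428 bases.

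Normoxic libraries decided many calls. Without Normoxic 1, 2 or 3 the number of calls was 475, 455 or 494, and 372 of the 1101 genes (308 higher, 64 lower) stayed called whichever of the 9 libraries was left out. Genes given with values below stayed called in all 9 of those fits unless the libraries that ended the call are named, with the highest adjusted p reached.

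The gene-length trend was confined, among the PBS libraries, to PBS 3. The Spearman correlation over genes between length and the difference from the Normoxic mean was -0.07 and -0.06 for PBS 1 and 2 but -0.44 for PBS 3, a description over genes that share each library. In the shortest of 5 length groups the median log2 difference was 0.01 for PBS 1, 0.02 for PBS 2 and 0.53 for PBS 3, and for the longest group it was -0.03, -0.02 and -0.36. PBS 1 and PBS 2 were thus within 0.04 of Normoxic in every length group, whereas PBS 3 ran from above to below it.

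**Figure D1:**
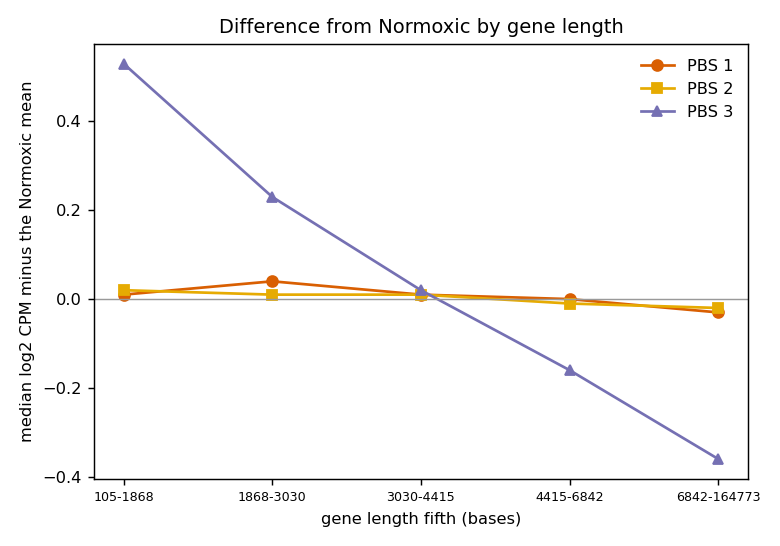
Median log2 CPM difference from the Normoxic mean (y axis) in 5 groups of near-equal size of the 17362 tested genes by length in bases (x axis), 1 line for each PBS library. PBS 1 and PBS 2 stay near 0, and PBS 3 falls from 0.53 in the shortest to -0.36 in the longest group.

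Leaving out PBS 3 moved which genes were called more than how many. The fit without it called 1052 of 17674 genes (5.95%), 724 higher and 328 lower. Of the calls 879 were made both ways, which is 79.8% of those with PBS 3 and 83.6% of those without it. Every one of the 1101 genes kept its direction without PBS 3, and no gene called both ways changed sign. Direction was largely fixed in advance, since the groups did not overlap for 746 of the 748 higher and all 353 lower genes. The log2 fold change moved by a median of 0.12 over all genes and 0.10 over called genes. A further 222 genes were called only with PBS 3 (126 higher, 96 lower) and 173 only without it (102 higher, 71 lower).

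The calls were spread differently over gene length in the fits with and without PBS 3. In the shortest group 191 genes were called higher and 13 lower with PBS 3, against 162 and 29 without it. In the longest group 54 were called higher and 102 lower with it, against 90 and 87 without it. When the length trend was removed by offsets with all libraries kept, 216 and 59 genes were called in the shortest and 131 and 108 in the longest group.

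Genes whose fold change was most raised by including PBS 3 included pigment, pigment epithelium and ribosomal genes. Ttr, the transthyretin made by pigment epithelium, stood at 44.7, 19.2 and 13.7 CPM in Normoxic 1, 2 and 3 and at 31, 27.7 and 132 CPM in PBS 1, 2 and 3, and its log2 fold change was 1.30 with PBS 3 and 0.19 without it. Dct, a melanin synthesis enzyme, read 14.8, 24 and 81.7 CPM in the PBS libraries against 13.4 to 25.7 in Normoxic. Rps27, a ribosomal protein of the small subunit, read 76.9, 75.4 and 227 CPM against 58.8 to 60.9. In each of these PBS 3 alone was far above the other 5 libraries, and none of the 3 was called.

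Genes whose fold change was most lowered by including PBS 3 included a nuclear RNA and a mucin. Malat1, a long non-coding RNA retained in the nucleus, was at 1002, 944 and 824 CPM in Normoxic and at 1463, 1330 and 436 CPM in PBS. Muc2, a gel-forming mucin, read 12.5, 21.6 and 15.2 CPM in Normoxic and 95.3, 39.2 and 21.2 CPM in PBS. Muc2 was called only without PBS 3, with a log2 fold change of 2.03 (adjusted p = 0.0049) against 1.66 (adjusted p = 0.065) with it. For Malat1 PBS 1 and PBS 2 lay above all Normoxic libraries and PBS 3 below them, and it was called neither way.

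Some cell-cycle and leukocyte genes were called only with PBS 3. They were led by Cd53, a leukocyte tetraspanin, at 0.938, 0.83 and 0.789 CPM in Normoxic and 1.69, 2.45 and 3.16 CPM in PBS, and by the spindle genes Tpx2 and Nusap1 and the replication licensing gene Mcm3. In these 4 genes the adjusted p without PBS 3 was 0.0522 for Cd53, 0.0632 for Tpx2, 0.0663 for Nusap1 and 0.0549 for Mcm3, and each call was also lost without any 1 Normoxic library (up to 0.0972 for Mcm3). Those called only without PBS 3 were led by Prkab2, a subunit of the AMP-activated kinase, at 35.6, 35.2 and 36.2 CPM in Normoxic and 67.1, 56.3 and 37.2 CPM in PBS. Rnf213, a large interferon-responsive ubiquitin ligase, read 41, 39.3 and 22.6 CPM against 108, 83.8 and 39.2 CPM. Itgb3, the integrin beta 3 subunit, read 0.804, 0.738 and 0.92 CPM against 4.29, 2.68 and 0.965 CPM. In these last 3 genes PBS 3 lay within or next to the Normoxic range while PBS 1 and PBS 2 lay above it.

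**Figure D2:**
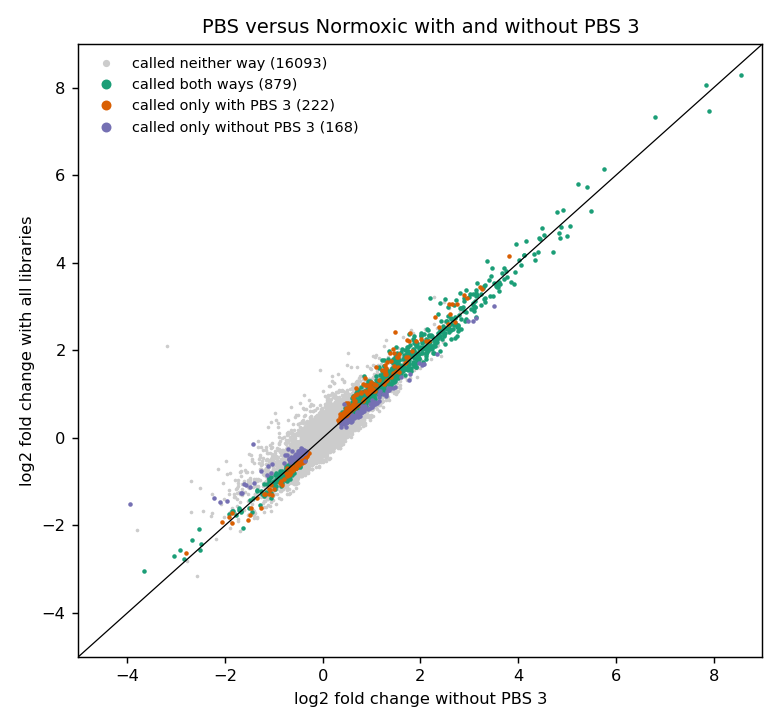
Log2 fold change of PBS against Normoxic with all libraries (y axis) and without PBS 3 (x axis), 1 point for each of the 17362 genes tested in both fits, coloured by the fits that called it, with 3 genes outside the axes. The 879 genes called both ways lie along the line of equality, and of the 173 genes called only without PBS 3 the plot holds the 168 that also passed the filter with it.

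Cytokine signalling through gp130 is a main route by which photoreceptor and glial injury reaches Müller cells, and its signal is carried by JAK kinases and STAT factors and ended by SOCS proteins. Of 26 tested members of this pathway 6 were called higher and none lower, with a median log2 fold change of 0.21. Among receptors, Osmr, the oncostatin M receptor, stood at 6.33, 5.6 and 4.4 CPM in Normoxic and at 26.7, 16.3 and 14.8 CPM in PBS. Its log2 fold change was 1.82 ± 0.23 (adjusted p = 0.0013). All PBS libraries were above all Normoxic libraries, with PBS 1 the highest.

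The transducer Stat3 read 77, 73.9 and 75.1 CPM in Normoxic and 229, 142 and 120 CPM in PBS, a log2 fold change of 1.12 ± 0.20 (adjusted p = 0.0086, lost without Normoxic 2 at 0.0506). The feedback inhibitor Socs3 read 4.09, 4.49 and 2.86 CPM against 29.2, 14.1 and 7.63 CPM, a log2 fold change of 2.15 ± 0.43 (adjusted p = 0.015, lost without Normoxic 1, 2 or 3 at up to 0.0756). Both ran in the order PBS 1, PBS 2, PBS 3, and neither overlapped Normoxic. Without PBS 3 the values were 1.30 (adjusted p = 0.00058) for Stat3 and 2.50 (adjusted p = 0.00061) for Socs3. Jak3 and Stat6 were also called. Averaged over the list, the difference from Normoxic was 0.83 for PBS 1, 0.37 for PBS 2 and 0.16 for PBS 3, so the list as a whole showed the same order of libraries.

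**Figure D3:**
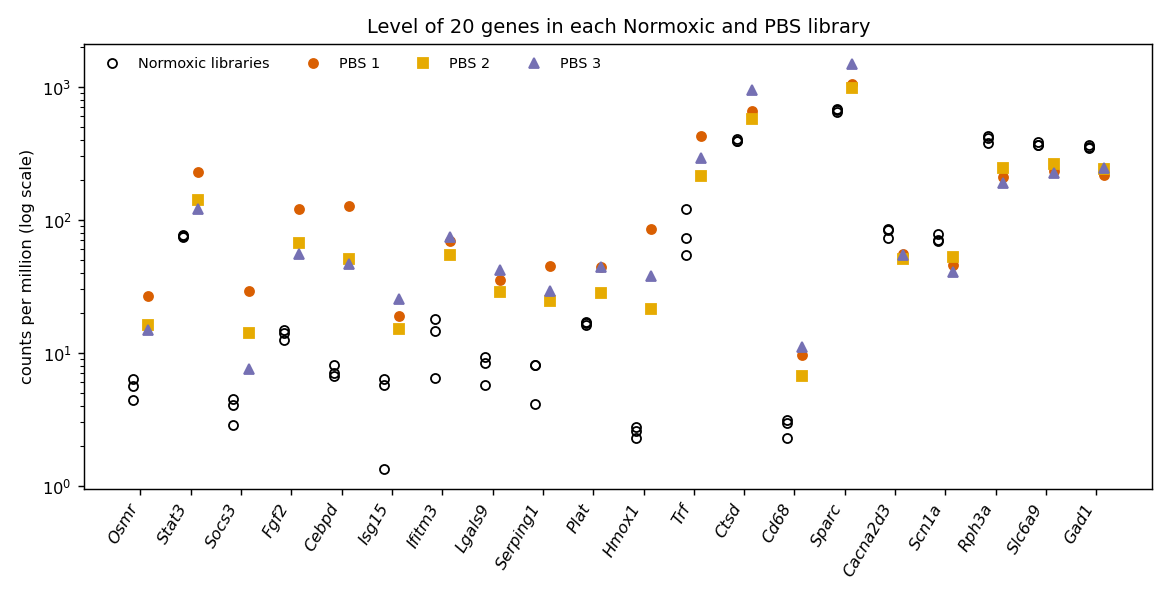
CPM on a log axis (y axis) of 20 genes (x axis), with open circles for the 3 Normoxic libraries and coloured symbols for PBS 1, 2 and 3. The first 15 genes were called higher and the last 5 lower. In each of the 20 the PBS libraries lie on one side of all 3 Normoxic libraries, as in 746 of 748 higher and all 353 lower calls.

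In fibroblast growth factor signalling and ERK feedback 1 of 26 tested genes was called higher and 2 lower (11.5%, against 6.34% of all genes in either direction). Fgf2, a factor that protects photoreceptors and is made by Müller glia, read 14.9, 14.1 and 12.6 CPM in Normoxic and 121, 66.6 and 55.2 CPM in PBS, with a log2 fold change of 2.54 ± 0.26 (adjusted p = 0.00051). The other 25 tested genes of fibroblast growth factor signalling and ERK feedback included 2 calls, both lower. One was Spry2, a feedback inhibitor of receptor tyrosine kinases, at 93.3, 108 and 108 CPM against 74.8, 67 and 64.5 CPM (log2 fold change -0.59 ± 0.11, adjusted p = 0.012, lost without Normoxic 2 or 3 at up to 0.0722). Fgf2 and its feedback inhibitor Spry2 thus lay on opposite sides of Normoxic.

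Among epidermal growth factor ligands and receptors 1 of 14 was called (7.14%, against 6.34% of all genes). It was the ligand Btc, betacellulin, at 2.68, 2.21 and 1.74 CPM against 7.7, 5.73 and 5.12 CPM (log2 fold change 1.48 ± 0.24, adjusted p = 0.0048). Pgf, the placental growth factor that binds VEGF receptor 1, was called higher at 0.502, 1.48 and 0.756 CPM against 10.7, 3.44 and 6.29 CPM (2.88 ± 0.45, adjusted p = 0.0043). Vgf, a secreted neuronal peptide precursor induced by neurotrophins, was called lower at 33, 38.1 and 53.5 CPM against 17.8, 19.9 and 14.4 CPM (-1.26 ± 0.20, adjusted p = 0.005). No PBS value of these 3 genes reached the Normoxic range.

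In the bone morphogenetic protein and activin list 4 of 35 tested genes were called higher and 2 lower. Eng, the endothelial co-receptor endoglin, read 19, 20.4 and 24.9 CPM in Normoxic and 38.6, 39 and 47.8 CPM in PBS (0.97 ± 0.14, adjusted p = 0.0035), and Fstl3, a secreted activin inhibitor, rose by 1.43 ± 0.21 (adjusted p = 0.0036). Gdf11, a ligand that limits retinal ganglion cell production in development, was at 38.4, 38.4 and 38.9 CPM against 23.6, 27.8 and 20.6 CPM (-0.69 ± 0.12, adjusted p = 0.00845). In the Notch list 4 of 25 were called higher and 1 lower, led by Dlk1, a non-canonical ligand, at 0.067 to 0.197 against 0.827 to 1.37 CPM (3.39 ± 0.53, adjusted p = 0.0042).

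Targets of the mechanosensitive co-activators YAP and TAZ showed 5 of 24 called higher, none lower and a median of 0.07. Without PBS 3 the number was 7 and the median 0.24, and with the length trend removed 8 were called. Wwtr1, which encodes TAZ itself, read 18, 15.7 and 17.6 CPM against 41.5, 28.4 and 28.4 CPM (0.94 ± 0.15, adjusted p = 0.0051). Ccn2, a matricellular target, read 23.7, 27.2 and 19.9 CPM against 67.1, 48.1 and 52.3 CPM (1.24 ± 0.17, adjusted p = 0.0025). Gadd45b, Axl and Ccn1 were the other 3 called. The list mean was 0.54 for PBS 1, 0.24 for PBS 2 and 0.18 for PBS 3.

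In the tumour necrosis factor superfamily 6 of 24 tested members were called higher and none lower, with a median of 0.53, and all 6 were receptors. Without PBS 3 the number was 5 and the median 0.34, and with a filter of at least 1 CPM in 3 libraries the median was 0.16. Tnfrsf1a, the main receptor for tumour necrosis factor, stood at 9.48, 9.53 and 9.13 CPM in Normoxic and 36.1, 24.9 and 24.1 CPM in PBS (1.60 ± 0.16, adjusted p = 0.00051). Tnfrsf12a, the receptor for TWEAK, read 1.27, 2.37 and 2.76 CPM against 9.32, 7.05 and 7.57 CPM (1.90 ± 0.28, adjusted p = 0.0036). Tnfrsf1b, the second receptor for the same cytokine, rose by 1.17 ± 0.20 (adjusted p = 0.0068), and Ltbr, Tnfrsf21 and Eda2r completed the list. Downstream, 5 of 29 regulators of cell death outside the BCL-2 family were called higher and none lower, among them Ripk3 and Mlkl, the kinase and pore-forming effector of necroptosis, Casp8 and Birc3. Ripk3 read 0, 0.0308 and 0 CPM in Normoxic and 0.763, 0.331 and 1.35 CPM in PBS, and Mlkl rose by 2.04 ± 0.41 (adjusted p = 0.016, lost without Normoxic 1 or 2 at up to 0.0791).

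Sensors of nucleic acids and microbial products were called higher in 12 of 25 tested genes and lower in none, with a median of 1.16. Cytosolic RNA sensing was represented by Dhx58 (LGP2), at 3.78, 3.48 and 2.86 CPM against 11.5, 9.6 and 8.39 CPM (1.54 ± 0.22, adjusted p = 0.0028), and Ifih1 (MDA5), at 6.03, 5.29 and 3.84 CPM against 12.5, 10.2 and 9.48 CPM (1.08 ± 0.20, adjusted p = 0.0095). Zbp1, a sensor of Z-form nucleic acid that can engage Ripk3, read 0.502, 0.584 and 0.131 CPM against 3.69, 3.31 and 2.19 CPM (2.90 ± 0.47, adjusted p = 0.005). Each sensor was higher in all 3 PBS libraries than in any Normoxic library, as were nearly all genes called higher. The Toll-like receptors Tlr2, Tlr3, Tlr4, Tlr7 and Tlr13 were also called, at 6.97 CPM or less in each library, and each lost the call without at least 1 of the libraries (adjusted p up to 0.162 for Tlr2). Summed CPM of 10 microglia and macrophage markers moved with these genes, at 62.8 to 69.8 in Normoxic and 149, 148 and 234 in PBS, and its part in the result was not tested.

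Most interferon effectors were called higher. Of 26 tested ubiquitin-like, TRIM, PARP and membrane effectors 20 were called higher and none lower, with a median of 1.42, and 11 of the 20 kept the call whichever library was left out. Without PBS 3 the number was 21 and the median 1.60. Normoxic 3 was lower than the other Normoxic libraries, with a list mean of -0.51 against 0.17 and 0.34, while the PBS libraries stood at 1.69, 1.42 and 1.43. Isg15, the ubiquitin-like protein that gives the pathway its best known modification, showed this in full, at 5.76, 6.37 and 1.35 CPM in Normoxic and 18.9, 15.2 and 25.6 CPM in PBS (2.14 ± 0.45, adjusted p = 0.018, lost without Normoxic 1 at 0.0554).

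The enzymes of that modification moved the same way. Ube2l6, the conjugating enzyme, read 3.22, 3.72 and 2.66 CPM against 17.3, 11.4 and 15.9 CPM (2.22 ± 0.31, adjusted p = 0.0024), and Usp18, the protease that removes ISG15, read 4.99, 4.4 and 2.23 CPM against 18.7, 12.9 and 12.9 CPM (1.93 ± 0.32, adjusted p = 0.0061). Bst2, or tetherin, which holds budding virus at the membrane, read 8.81, 8.43 and 2.99 CPM against 31.2, 27.9 and 36.2 CPM (2.24 ± 0.34, adjusted p = 0.004). Conjugating enzyme, protease and effector all lay above the Normoxic range in all PBS libraries. Ifitm3 rose by 2.34 ± 0.37 (adjusted p = 0.0043) and Ifitm2 by 1.87 ± 0.25 (adjusted p = 0.0021), and Trim30a by 2.18 ± 0.32 (adjusted p = 0.0035). These 3 have close paralogs, between which the deposited counts may divide reads. The longer PARP, HERC and RNF genes were lowest among PBS libraries in PBS 3, as in Parp14 at 34.3, 25.6 and 15.5 CPM and Herc6 at 7.44, 6.19 and 3.01 CPM. Neither Parp14 nor Herc6 is among the 11 effectors that kept the call whichever library was left out.

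The sequence before the start site is shown for 4 of these effectors and for Socs3, as examples from the interferon effector and gp130 lists. The 250 bases come from RefSeq (GRCm38.p6), 5′ to 3′ on the gene's strand, and capitals mark GAAA repeated after any 2 bases, the core of the interferon-stimulated response element, or for Socs3 TTCNNNGAA, the core of a STAT site, on either strand with overlaps merged.
Isg15, chr4:156200819-156201068, minus strand: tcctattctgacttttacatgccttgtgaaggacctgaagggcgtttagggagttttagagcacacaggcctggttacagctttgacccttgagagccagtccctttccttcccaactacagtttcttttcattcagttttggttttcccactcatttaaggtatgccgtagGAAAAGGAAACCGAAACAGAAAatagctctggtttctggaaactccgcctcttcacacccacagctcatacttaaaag
Bst2, chr8:71537473-71537722, minus strand: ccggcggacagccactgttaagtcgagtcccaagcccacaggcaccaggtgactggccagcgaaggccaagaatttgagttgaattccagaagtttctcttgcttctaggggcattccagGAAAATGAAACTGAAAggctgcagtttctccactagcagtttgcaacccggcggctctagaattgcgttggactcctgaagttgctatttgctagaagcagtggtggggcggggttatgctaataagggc
Trim30a, chr7:104465194-104465443, minus strand: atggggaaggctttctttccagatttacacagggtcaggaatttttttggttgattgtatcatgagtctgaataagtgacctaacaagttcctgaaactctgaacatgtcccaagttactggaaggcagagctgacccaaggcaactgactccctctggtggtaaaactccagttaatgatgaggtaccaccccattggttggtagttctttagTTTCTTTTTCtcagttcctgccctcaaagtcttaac
Ifitm2, chr7:140955962-140956211, minus strand: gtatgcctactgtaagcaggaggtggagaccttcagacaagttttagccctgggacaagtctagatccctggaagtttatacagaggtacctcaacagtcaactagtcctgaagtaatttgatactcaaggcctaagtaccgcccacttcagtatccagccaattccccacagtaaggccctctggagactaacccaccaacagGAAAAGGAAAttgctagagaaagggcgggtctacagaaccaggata
Socs3, chr11:117969367-117969616, minus strand: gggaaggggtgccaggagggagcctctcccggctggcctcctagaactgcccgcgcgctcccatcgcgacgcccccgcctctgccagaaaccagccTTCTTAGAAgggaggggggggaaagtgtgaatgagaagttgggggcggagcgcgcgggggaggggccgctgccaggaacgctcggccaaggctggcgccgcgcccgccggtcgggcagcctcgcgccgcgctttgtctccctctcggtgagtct
In Isg15 3 overlapping matches formed 1 run beginning 78 bases before the start site, and in Bst2 2 overlapping matches began 130 bases before it. RefSeq promoters of the 250 bases before and 50 bases after the start site were matched for 13495 of the 17362 tested genes. The repeated GAAA was present in 2.85% of them, in 9.22% of 586 for genes called higher, in 2.22% of 270 for genes called lower, and in 9 of 22 of the effector list. TTCNNNGAA was present in 6.80%, 8.53% and 5.93%, and in 2 of 22 of the gp130 list, Socs3 among them. TGANTCA, the core of an AP-1 site, was in 4.99% of all, 10.4% of higher and 4.81% of lower genes. These shares describe letters in short windows, and the effector promoters outside those 9 of 22 held no repeated GAAA in theirs.

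Transcription factors linked to glial and immune injury responses were called higher in 15 of 36 and lower in none, with a median of 0.72. Cebpd, a factor induced by STAT3 in acute-phase responses, read 6.73, 8.06 and 7 CPM in Normoxic and 127, 50.9 and 46.8 CPM in PBS (3.36 ± 0.34, adjusted p = 0.00052). Irf8, a factor of myeloid cells, read 2.48, 2.09 and 2.37 CPM against 9.48, 4.37 and 6.93 CPM (1.58 ± 0.26, adjusted p = 0.0054). These were the 2 of the 15 that kept the call whichever library was left out. The other called members were Irf1, Irf9, Maff, Mafk, Cebpa, Cebpb, Ets1, Ets2, Elk3, Elf4, Klf10, Klf15 and Nfe2l2.

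Among proteasome genes the calls lay in the immunoproteasome list. The immunoproteasome, in which interferon-induced subunits replace constitutive ones, had 4 of 8 genes called higher with a median of 0.50, and 2 with a median of 0.26 without PBS 3. Psmb8 read 4.52, 3.78 and 1.71 CPM against 14, 8.41 and 14.1 CPM (1.87 ± 0.35, adjusted p = 0.011). Of 31 constitutive proteasome genes none was called in either direction, and for 10 the interval lay within 1.5-fold. Their median was 0.29 with PBS 3 and 0.01 without it, and their mean was -0.01 and 0.03 for PBS 1 and 2 but 0.64 for PBS 3. The constitutive genes therefore stood above Normoxic in PBS 3 alone. Psmb9, Psmb10 and Psme2 were also called with PBS 3, and Psmb10 and Psme2 were not called without it (adjusted p = 0.0847 and 0.057).

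Lysosomal and phagocytic genes were called higher in 17 of 38 and lower in 1, with a median of 0.49, and in the same numbers without PBS 3. Ctsc, the protease that activates granule proteases, read 11.2, 12.5 and 10.2 CPM against 30.8, 25.5 and 31 CPM (1.37 ± 0.15, adjusted p = 0.00066). Pros1, the bridging ligand that marks outer segments and dying cells for uptake, read 7.34, 6.74 and 5.95 CPM against 26.1, 15.3 and 19.1 CPM (1.60 ± 0.22, adjusted p = 0.0023). Axl, a receptor tyrosine kinase, read 23.1, 24.8 and 20.5 CPM against 49.4, 38 and 39.2 CPM (0.89 ± 0.14, adjusted p = 0.0051). Pros1 and Axl both lay above Normoxic in each PBS library. Trem2 and its adaptor Tyrobp, which mark lipid-handling microglia, rose by 1.78 ± 0.28 (adjusted p = 0.0043) and 1.93 ± 0.35 (adjusted p = 0.0083). The abundant protease Ctsd read 389, 405 and 390 CPM against 658, 573 and 938 CPM (0.87 ± 0.18, adjusted p = 0.016, lost without Normoxic 1, 2 or 3 at up to 0.0714). The list mean was 0.55 for PBS 1, 0.51 for PBS 2 and 0.88 for PBS 3, the library with the highest summed microglia and macrophage markers, whose part in the result was not tested. The lower member was Elmo1, an engulfment adaptor.

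**Figure D4:**
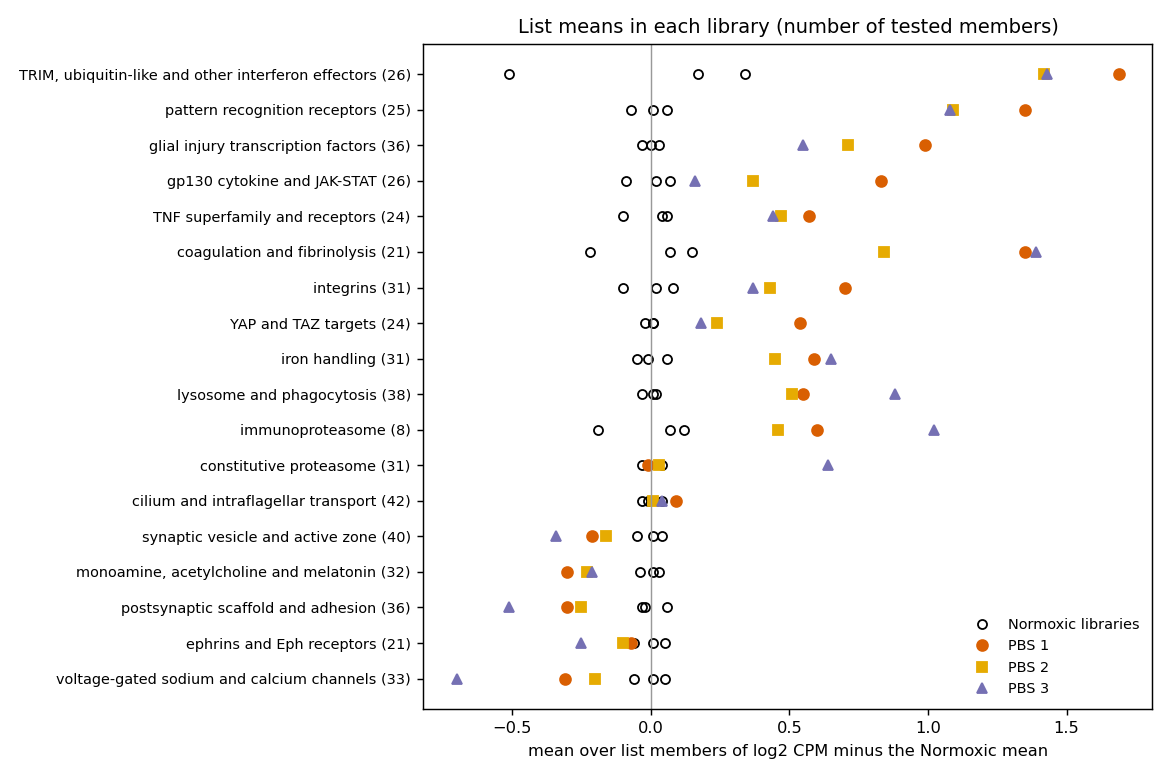
Mean over list members of log2 CPM minus the Normoxic mean (x axis) for 18 gene lists (y axis, number of tested members in brackets), with open circles for Normoxic and coloured symbols for PBS libraries. The gp130 list runs from 0.83 in PBS 1 to 0.16 in PBS 3, the constitutive proteasome is away from 0 only in PBS 3 at 0.64, and the ion channel list lies below 0 in all PBS libraries.

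Iron and lipid handling were called in a few members with large changes. Of 31 iron genes 6 were called higher and none lower, with a median of 0.19. Trf, transferrin, read 120, 72.8 and 54 CPM in Normoxic and 425, 213 and 290 CPM in PBS (1.91 ± 0.30, adjusted p = 0.0041), and Cp, the ferroxidase ceruloplasmin, read 118, 107 and 84.1 CPM against 269, 194 and 212 CPM (1.13 ± 0.19, adjusted p = 0.0061). Hmox1, the heme-degrading enzyme, read 2.58, 2.28 and 2.76 CPM against 85.7, 21.2 and 37.6 CPM (4.25 ± 0.44, adjusted p = 0.00052). Iron carriers and heme breakdown thus stood above Normoxic in all 3 PBS libraries. Summed CPM of the 5 tested erythroid markers was 46.4 to 50.5 in Normoxic but 153, 45.2 and 206 in PBS, and its part in the result was not tested.

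Lipoprotein and cholesterol genes went both ways, with 4 of 28 called higher and 2 lower. Plin2, a lipid droplet coat, read 7.37, 7.32 and 7.49 CPM against 19.1, 13.9 and 21.3 CPM (1.29 ± 0.16, adjusted p = 0.0013). Lipg, endothelial lipase, fell by 1.42 on the log2 scale (adjusted p = 0.0079). Abca1, the cholesterol exporter, was called higher at 0.57 ± 0.13 (adjusted p = 0.03, lost without PBS 1 or 2 or any Normoxic library at up to 0.137). The lipase and the exporter thus lay on opposite sides of Normoxic. In polyamine and one-carbon metabolism 3 of 29 were called higher, including Odc1, the first enzyme of polyamine synthesis, at 99.3, 93 and 102 CPM against 196, 201 and 293 CPM (1.23 ± 0.16, adjusted p = 0.0016), and Sat1, the enzyme that degrades polyamines (1.17 ± 0.19, adjusted p = 0.0048).

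Crym and Car9 were the only higher calls of their lists. The list of Car9, carbonic anhydrases with bicarbonate and monocarboxylate transport, also had 2 lower calls among 25 tested genes. Its share called in either direction was 12%, against 6.34% of all genes. Crym, a thyroid hormone binding protein, read 84.3, 88.6 and 84.6 CPM against 199, 159 and 216 CPM (1.16 ± 0.14, adjusted p = 0.00097). It was the 1 of 12 thyroid hormone genes called (8.33%, against 6.34% of all genes). Car9, the carbonic anhydrase induced by low oxygen, read 0.067, 0.0308 and 0 CPM against 0.509, 0.43 and 0.643 CPM (3.88 ± 0.67, adjusted p = 0.0069). Both lay above Normoxic in all 3 PBS libraries.

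Coagulation and fibrinolysis genes were called higher in 10 of 21 and lower in none, with a median of 0.98. The protease Plat, tissue plasminogen activator, read 16.2, 17 and 16.8 CPM against 43.8, 28.1 and 44.1 CPM (1.22 ± 0.17, adjusted p = 0.0024). Plau, the urokinase-type activator, and its receptor Plaur rose by 3.25 ± 0.65 (adjusted p = 0.014, lost without Normoxic 1 or 3 at up to 0.0729) and 3.67 ± 0.74 (adjusted p = 0.015, lost without Normoxic 1 or 2 at up to 0.0795). Both activators and the receptor therefore rose. Serping1, the inhibitor of C1 and of contact activation, read 8.17, 8.12 and 4.14 CPM against 44.6, 24.6 and 29 CPM (2.26 ± 0.28, adjusted p = 0.0014), and Anxa2, Vwf, Tfpi, Procr and Pros1 were also called. Summed CPM of 8 pericyte and smooth muscle markers was 126 to 152 in Normoxic and 290, 331 and 447 in PBS, with 4 called higher. That of 8 endothelial markers was 335 to 384 against 336, 357 and 400, with 4 called higher and 1 lower. The part of these markers in the result was not tested.

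Adhesion receptors and secreted proteins of injury followed. Of 31 integrins 8 were called higher and none lower, and 10 without PBS 3, with medians of 0.34 and 0.40. Itga5, the fibronectin receptor subunit, read 3.08, 4.67 and 5.22 CPM against 10.3, 10.5 and 9.15 CPM (1.21 ± 0.21, adjusted p = 0.0068), and its ligand Fn1 84.8, 102 and 125 CPM against 333, 206 and 177 CPM (1.20 ± 0.23, adjusted p = 0.012, lost without Normoxic 1 or 2 at up to 0.0668). Itgb2, the leukocyte beta 2 subunit, rose by 2.33 ± 0.41 (adjusted p = 0.0075). Matrix receptor, ligand and leukocyte subunit were thus all above Normoxic. Lgals9 and Lgals3, carbohydrate-binding galectins, rose by 2.17 ± 0.24 (adjusted p = 0.00074) and 2.66 ± 0.41 (adjusted p = 0.0042), with Lgals9 at 8.44, 9.29 and 5.75 CPM against 35.1, 28.7 and 41.8 CPM. Lcn2, an iron-siderophore binding lipocalin, read 2.48, 3.81 and 2.99 CPM against 21.1, 13.6 and 12.1 CPM (2.33 ± 0.36, adjusted p = 0.0041).

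Of 28 matricellular genes 6 were called higher and 2 lower, and of 23 genes of chondroitin sulfate proteoglycans and hyaluronan 2 higher and 2 lower. Without PBS 3 the numbers were 7 and 0, and 3 and 0. Sparc, a collagen-binding matricellular protein, read 647, 676 and 672 CPM against 1053, 973 and 1475 CPM (0.81 ± 0.17, adjusted p = 0.019, lost without Normoxic 1, 2 or 3 at up to 0.0879). Spock2, a testican of brain matrix, read 704, 758 and 795 CPM against 574, 596 and 469 CPM (-0.46 ± 0.12, adjusted p = 0.038). Bcan, the brevican of perineuronal nets, and Tnr, tenascin-R, were called lower with log2 fold changes of -0.60 and -0.54 (adjusted p = 0.035 and 0.05). Neither these nor Spock2 was called without PBS 3 (adjusted p = 0.069 for Bcan, 0.057 for Tnr and 0.053 for Spock2), although their fold changes without it kept the sign at -0.49, -0.39 and -0.36, and each also lost the call without PBS 1, Gel 2, Gel 3 or any 1 Normoxic library (up to 0.171 for Spock2).

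Of 33 voltage-gated sodium and calcium channel genes none was called higher and 5 lower, and 1 had a log2 fold change above 0, with a median of -0.38 with PBS 3 and -0.28 without it. Cacna2d3, an auxiliary calcium channel subunit, read 83.8, 85.4 and 72.8 CPM against 55.7, 50.6 and 54.2 CPM (-0.59 ± 0.10, adjusted p = 0.0064), and Scn1a, a sodium channel of interneurons and ganglion cells, read 78, 70.8 and 69.2 CPM against 45.8, 52.7 and 40.3 CPM (-0.65 ± 0.11, adjusted p = 0.0067). Both kept the call whichever library was left out. The list mean was -0.31 for PBS 1, -0.20 for PBS 2 and -0.70 for PBS 3, below the Normoxic range of -0.06 to 0.05 in each.

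Few synaptic genes were called, but the share called lower was above the 2.03% of all genes. Of 40 synaptic vesicle and active zone genes none was called higher and 3 lower (7.5%). In this list 4 had a log2 fold change above 0, and the median was -0.25, while for 24 the interval lay within 1.5-fold. Cplx1, a complexin of conventional synapses, read 218, 236 and 234 CPM against 144, 154 and 180 CPM (-0.53 ± 0.13, adjusted p = 0.037, lost without PBS 1 or 2, Gel 2 or any Normoxic library at up to 0.136). Of 36 postsynaptic genes 2 were called lower (5.56%), Lrrtm1 and Homer2, and 2 had a log2 fold change above 0. None of these 5 calls was kept in every fit with a library left out. In this list Dlg2, a scaffold, read 316, 304 and 304 CPM against 215, 262 and 225 CPM with an adjusted p of 0.0525. Removing the length trend moved its log2 fold change from -0.40 to -0.10 (adjusted p = 0.71). It moved the medians of the channel, synaptic vesicle and postsynaptic lists from -0.38, -0.25 and -0.38 to -0.27, -0.18 and -0.25.

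Some transmitter receptors, transporters and enzymes were called lower. Of 32 genes of monoamine, acetylcholine and melatonin signalling 6 were called lower and none higher. Without PBS 3 the numbers were 5 and 1. None of the 6 calls was kept in every fit with a library left out. Among them were Drd2, the dopamine D2 receptor, at 50.5, 55.9 and 59.9 CPM against 39.8, 38.9 and 37.6 CPM (-0.52 ± 0.10, adjusted p = 0.0115, lost without Normoxic 2 or 3 at up to 0.0691), and the acetylcholine receptor genes Chrm2, Chrna4, Chrna7 and Chrnb3. Chrna4 and Chrna7 were not called without PBS 3 (adjusted p = 0.07 and 0.063), and Chrna4 reached 0.18 without Normoxic 2. The glycine transporter Slc6a9 read 363, 386 and 367 CPM against 231, 261 and 226 CPM (-0.64 ± 0.11, adjusted p = 0.0061). Gad1, which makes GABA, read 353, 344 and 362 CPM against 217, 242 and 247 CPM (-0.58 ± 0.11, adjusted p = 0.0089). No PBS library reached the Normoxic range in either gene, and both kept the call whichever library was left out. Both are among the 8 amacrine cell markers, whose summed CPM was 1306 to 1358 in Normoxic and 961, 1026 and 895 in PBS, with 2 called lower and none above 0 in log2 fold change. The sum of 8 bipolar cell markers was 1706 to 1733 against 1339, 1457 and 1272, with 1 called lower. The part of these markers in the result was not tested.

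Outside these lists Rph3a, the vesicle protein rabphilin, read 375, 410 and 428 CPM against 210, 245 and 188 CPM (-0.92 ± 0.12, adjusted p = 0.0018). Kcnk9, a background potassium channel, read 61.5, 63.1 and 61.7 CPM against 29.1, 30.3 and 18.7 CPM (-1.25 ± 0.17, adjusted p = 0.0023). In both genes the groups were separated by more than the spread within either.

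**Figure D5:**
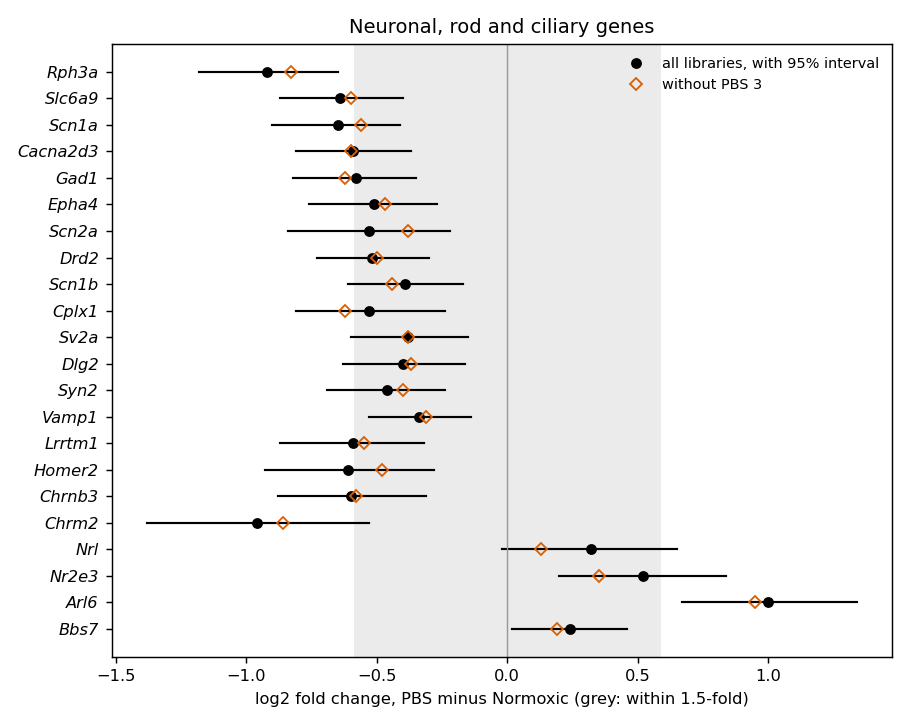
Log2 fold change of PBS against Normoxic (x axis) for 22 neuronal, rod and ciliary genes (y axis), as filled circles with 95% intervals for all libraries and open diamonds without PBS 3, over a grey band of changes within 1.5-fold. The neuronal genes lie between -0.34 and -0.96 with all libraries, and leaving out PBS 3 shifts none of the 22 across 0.

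Guidance and patterning genes gave a mixed picture. Of 21 ephrins and Eph receptors 1 was called higher and 4 lower. Efna1, a ligand expressed by endothelium, read 2.85, 4.06 and 3.78 CPM against 8.02, 8.74 and 10.7 CPM (1.36 ± 0.18, adjusted p = 0.0022), while the receptors Epha4, Ephb1, Ephb3 and Ephb6 were called lower with log2 fold changes of -0.43 to -0.55, and each lost the call in some of the fits with a library left out (up to 0.197 for Ephb3). Of 45 axon guidance genes 2 were called (4.44%, against 6.34% of all genes), both higher, while 10 of the 45 had a log2 fold change above 0. The list median was -0.21, and -0.15 without PBS 3 and -0.07 with the length trend removed. The 2 called genes were the secreted Sema3b at 13.4, 15 and 11.6 CPM against 39.5, 29.7 and 34.2 CPM (1.37 ± 0.17, adjusted p = 0.0012) and the endothelial Robo4 (0.93 ± 0.14, adjusted p = 0.0036). In the progenitor and proneural list of 31 genes 2 were called higher and 2 lower. Nes, the nestin filament of progenitors, reactive glia and new vessels, read 9.28, 8.64 and 10.3 CPM against 45.3, 26.1 and 26.7 CPM (1.80 ± 0.23, adjusted p = 0.0018). All 3 PBS libraries lay above all Normoxic libraries in this gene.

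None of 10 rod or 8 cone markers was called, and the median log2 fold change of the rod markers was 0.16 with PBS 3 and -0.02 without it. Among other genes expressed in photoreceptors, Esrrb, an orphan nuclear receptor of rods, read 485, 512 and 543 CPM against 348, 276 and 305 CPM (-0.73 ± 0.13, adjusted p = 0.007). Kcnj14, an inward rectifier potassium channel, read 378, 397 and 416 CPM against 251, 193 and 214 CPM (-0.85 ± 0.12, adjusted p = 0.0028). Both were lowest in PBS 2, in contrast to most lower genes, and both kept the call whichever library was left out. Samd7, a rod repressor of alternative photoreceptor programs, was called higher at 167, 165 and 168 CPM against 251, 219 and 258 CPM (0.54 ± 0.14, adjusted p = 0.041) but lost the call without PBS 1 or 3, Gel 3 or any 1 Normoxic library (up to 0.155).

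For 30 of 42 tested genes of ciliary structure and intraflagellar transport the interval lay within 1.5-fold, and the median of the 42 was 0.04, and 0.02 without PBS 3. The remaining 12 were not bounded in this way, and 2 of the 42 were called (4.76%, against 6.34% of all genes), both higher. One was Arl6, the Bardet-Biedl small GTPase, at 63.3, 52.9 and 57.1 CPM against 125, 97.8 and 124 CPM (1.00 ± 0.15, adjusted p = 0.0038), with 0.95 without PBS 3 and 0.89 with the length trend removed. Ift57 was the other member called (0.51 ± 0.12, adjusted p = 0.034) and lost the call without PBS 1 or 3, Gel 2 or any 1 Normoxic library (up to 0.128). Bbs7, a partner of Arl6 in the same coat, read 112, 100 and 109 CPM against 122, 122 and 134 CPM and was not called (0.24 ± 0.10, adjusted p = 0.2).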

How the data were processed

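RNA-seq libraries of retina were sequenced from 9 samples in 3 groups, 3 libraries a group. Reads were processed with Bowtie2, RSEM 1.3.1 and DESeq2 1.4.5 on GRCm39, per the submitters' processing notes, which give no role or order. The deposited table holds whole-number counts per gene made by the authors. The deposited FPKM values, per gene length and library total by the authors, were read only for gene lengths and levels per length. No source states how reads shared by near-identical paralogs were divided.

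The counts were fitted with edgeR 4.0.16 in R 4.3.3 (filterByExpr, minimum count 10, TMM, quasi-likelihood F test, all 9 libraries, group as the only term), with Benjamini-Hochberg adjustment over 17362 genes and a threshold of 0.05. Intervals are 95% and not adjusted over genes. Totals of 29324142 to 35663470 counts set the precision, which for genes under 1 CPM is low. Alternatives used DESeq2 1.42.0, limma 3.58.1, other filters and scalings, offsets that remove the length trend (loess, span 0.5), a replicate block and leaving out each library. The members and gene lists were chosen with earlier results of these data known. Named genes were called list members or those of smallest p, called genes of highest CPM or of middle rank by fold change, and genes that PBS 3 moved most.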

Additional observations from a re-analysis of the deposited data

How the results depend on the processing

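The number of called genes was 1101 in all, and between 1031 and 1100 with relative log expression factors (1100), limma-voom (1072) and a filter of at least 1 CPM in 3 libraries (1031). It was 1258 with no filter, 792 with the 6 libraries alone and 1482 with the length trend removed. It rose to 1863 with DESeq2 and to 1928 with limma-voom and sample quality weights, with 1101 and 1093 of the main calls among them. Leaving out 1 library gave 455 to 1184 called and 5757 to 9119 bounded genes. The lowest counts came without Normoxic 1, 2 or 3 (475, 455 and 494), and 786 were called without PBS 1. Replicate numbers did not pair the samples, with same-number correlations of -0.071, -0.065 and -0.053, and no library correlated best with its own number. With a replicate block 1050 genes were called, 727 higher and 323 lower, and 1362 with the block and the length trend removed. Leaving out PBS 3 and removing the length trend together, an alternative chosen after seeing the data, called 1236. Malat1, not called at 0.22, ranged from -0.06 without PBS 1 to 0.60 without PBS 3. The cause of these differences was not tested. Depth limits statements on genes under 1 CPM.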

Other observations

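In 8 genes every Normoxic library held 0 counts and every PBS library at least 3. Of these 2 passed the low-count filter. Fam167b had 9, 18 and 34 counts in PBS 1, 2 and 3, at least 19.5-fold above Normoxic when the 0 is replaced by a floor of 3 counts over the group. Ncapg, a condensin subunit of dividing cells that did not pass the filter, had 4, 9 and 9 counts, at least 7.04-fold higher on the same floor. The floor covers counting error only, and both genes were chosen after their values were seen.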
